A study of Homo sapiens with 6 samples.

Results

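A set of 9 genes of the major histocompatibility complex (MHC) class I pathway was followed in A549, a long-established cell line from a human lung adenocarcinoma: the heavy chain genes HLA-B, HLA-C and HLA-E, the light chain gene B2M, the peptide transporter genes TAP1 and TAP2, the tapasin gene TAPBP, and the immunoproteasome subunit genes PSMB8 and PSMB9. The members were all probe sets whose entry in the platform's probe table lists at least 1 of the 9 symbols, which gave 55 of the 25713 probe sets that carry a symbol and of 53617 in all. Cells were treated 1 day after plating with vehicle alone or with 2 µM of the code-named compounds Comp.2 or Comp.4, and RNA was taken on day 2. Each of the 3 groups held 2 whole-transcript arrays, and the series title describes the compounds as inhibitors of histone acetyltransferases that act at chosen DNA sequences. All cells of the study were unmodified A549 in the same serum-containing medium, so no genotype differs between the groups and 1 cell line stands behind every value. The labels do not say that the arrays of a group came from separate cultures. The p-values therefore set each difference against a scatter estimated from these 6 samples, and that scatter may be technical.

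Class I molecules show peptides from inside the cell to cytotoxic T cells. Proteasomes cut cytosolic proteins into peptides, and in cells exposed to interferon PSMB8 and PSMB9 replace constitutive catalytic subunits. The TAP1 and TAP2 proteins together carry the peptides into the endoplasmic reticulum, where tapasin holds the transporter and the empty heavy chain side by side. A loaded heavy chain, paired with beta-2-microglobulin (the product of B2M), then travels to the cell surface. HLA-B and HLA-C are classical, highly variable heavy chains, while HLA-E shows mainly leader peptides of other class I chains and is read by receptors of natural killer cells.

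All 9 genes but B2M lie in the MHC region of chromosome 6, and B2M lies on chromosome 15. TAP1 and PSMB9 are neighbours that start in opposite directions, 488 bases apart in RefSeq's GRCh38.p14. Their promoter windows (250 bases before to 50 bases after the start) overlap by 13 bases, which makes them a natural pair to set side by side. They are shown with the windows of B2M and of 1 PSMB8 start because TAP1, PSMB8 and B2M gave the largest differences described below. Capitals mark matches, on either strand, to 2 motifs. They are the interferon-stimulated response element core (GAAA, any 2 bases, GAAA) and an NF-kappaB site (GGGA, any 1 base, TTTCC). The PSMB9 window holds neither. The TAP1 matches lie between the TAP1 and PSMB9 starts, so they are also upstream of PSMB9. They fall outside its window, which reaches only 250 bases before its start. Sequences are RefSeq's, read 5′ to 3′ on the gene's strand.
TAP1, chr6:32853655-32853954, minus strand: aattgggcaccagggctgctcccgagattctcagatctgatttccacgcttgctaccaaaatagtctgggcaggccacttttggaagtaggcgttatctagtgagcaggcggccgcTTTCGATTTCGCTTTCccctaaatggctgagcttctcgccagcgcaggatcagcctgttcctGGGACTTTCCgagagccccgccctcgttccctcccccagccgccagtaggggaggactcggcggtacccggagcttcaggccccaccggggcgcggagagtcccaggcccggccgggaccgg
PSMB9, chr6:32853942-32854241, plus strand: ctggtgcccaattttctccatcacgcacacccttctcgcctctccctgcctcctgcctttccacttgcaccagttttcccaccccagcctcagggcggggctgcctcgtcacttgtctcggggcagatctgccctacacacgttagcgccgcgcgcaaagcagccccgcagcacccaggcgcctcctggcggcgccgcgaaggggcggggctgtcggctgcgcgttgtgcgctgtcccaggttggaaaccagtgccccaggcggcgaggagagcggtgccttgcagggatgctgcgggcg
PSMB8, chr6:32843998-32844297, minus strand: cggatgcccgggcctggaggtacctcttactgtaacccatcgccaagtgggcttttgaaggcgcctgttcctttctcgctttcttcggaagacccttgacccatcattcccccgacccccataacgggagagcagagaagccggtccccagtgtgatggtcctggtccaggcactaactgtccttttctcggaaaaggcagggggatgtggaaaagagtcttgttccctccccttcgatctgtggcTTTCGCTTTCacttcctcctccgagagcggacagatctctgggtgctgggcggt
B2M, chr15:44711267-44711566, plus strand: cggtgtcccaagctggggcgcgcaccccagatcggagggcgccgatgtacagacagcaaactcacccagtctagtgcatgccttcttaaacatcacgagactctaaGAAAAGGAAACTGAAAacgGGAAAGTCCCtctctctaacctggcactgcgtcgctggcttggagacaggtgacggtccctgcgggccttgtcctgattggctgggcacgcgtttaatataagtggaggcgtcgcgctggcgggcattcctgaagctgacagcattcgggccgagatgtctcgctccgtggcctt

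In the TAP1 window 2 response element matches overlap, beginning 134 and 128 bases before the start, and the NF-kappaB match begins 72 bases before it. In the B2M window 2 overlapping response element matches begin 144 and 138 bases before the start, and the NF-kappaB match begins 125 bases before it. The PSMB8 match spans its start, beginning 4 bases before it. Windows were matched for 8 of the 9 genes, all but HLA-E, and TAP1 and PSMB8 had 2 windows each, which gave 10 windows. The response element core was in 5 of the 10 windows (B2M, PSMB8, TAP1, TAP2 and TAPBP), against 3.57% of 35116 RefSeq windows of this length. The NF-kappaB letters were in 2 of the 10 windows (B2M and TAP1), against 0.558% of all windows. The other window of TAP1 and that of PSMB8 held neither. A CCAAT box, searched as CCAAT on both strands, was in 5 of the 10 (B2M, HLA-B, HLA-C, PSMB9 and TAP1), and in 34.6% of all. The TAP1 and PSMB9 matches are 1 and the same site, in the 13 bases that their windows share. A match is a description of letters, and binding was not measured here. The response element matches of TAP2 and TAPBP are in windows not shown. Their log2 differences from vehicle were -0.16 and 0.018 under Comp.2, and -0.10 and -0.16 under Comp.4. Those of B2M, PSMB8 and TAP1 were 0.14, 0.32 and 0.38 under Comp.2, and 0.37, 0.18 and 0.26 under Comp.4. Whether a match goes with a difference was not tested. Only these exact letters were searched, so a window without a match may still hold another form of an element.

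The deposited values are log2 signal levels on a scale that the authors had made equal between arrays. The array medians lay between 4.55 and 4.56, so these values cannot show a shift common to most transcripts. Across probe sets Pearson's r was 0.992 to 0.994 within groups and 0.989 to 0.992 between groups, a description over points that share arrays. All 6 epithelial markers were above the median level of named probe sets (5.35), with CDH1, the E-cadherin gene, at 10.23 and the keratin gene KRT18 at 8.20. Of 10 measured markers of leukocytes and antigen presenting cells 1 (CD14) was above it, of 4 fibroblast markers 1 (COL1A1), of 6 alveolar type 2 markers 1 (ABCA3), and of 4 endothelial markers none. PTPRC, which marks leukocytes, was at 2.69, and the MHC class II gene HLA-DRA at 3.94. Averaged over the 10 leukocyte markers the level was 4.36 to 4.43 on the vehicle arrays, 4.37 to 4.47 under Comp.2 and 4.47 to 4.48 under Comp.4. The mean of the 6 alveolar type 2 markers, 5 of them dim, was 4.34 to 4.38 in vehicle, 4.47 to 4.54 under Comp.2 and 4.52 to 4.57 under Comp.4, so all treated arrays lay above vehicle. The 6 epithelial markers averaged 7.81 to 7.89 in vehicle, 7.94 to 7.97 under Comp.2 and 7.82 to 7.88 under Comp.4, with Comp.2 above the other groups. For the fibroblast and endothelial lists, as for the leukocyte list, both Comp.4 arrays lay above both vehicle arrays, while Comp.2 overlapped vehicle. The part of these shifts in the results below was not tested. None of the 30 markers of the 5 lists passed limma's test in any comparison. At an unadjusted p under 0.05, 6 were higher and none lower under Comp.2 (6.06% and 5.28% of all named probe sets were), 4 and 2 under Comp.4 (8.70% and 8.24%), and 0 and 2 under Comp.4 against Comp.2 (7.61% and 7.56%). In RNA from whole cultures, fewer cells with a transcript and less of it per cell cannot be told apart.

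The 55 probe sets were not 55 measurements. They held 32 distinct sets of 6 values, and 31 of the probe sets had all 6 values in common with at least 1 other. HLA-E had 11 probe sets with 3 distinct sets of values, TAP1 8 with 2, PSMB8 8 with 2, PSMB9 5 with 4, TAPBP 5 with 4, TAP2 9 with 8, HLA-C 7 with 7, HLA-B 2 with 2 and B2M 1. Probe sets with different values also stood apart in level: the mean over the 6 arrays ran from 5.27 to 8.19 for HLA-E, from 6.41 to 8.09 for HLA-C and from 4.37 to 6.65 for TAP2, but only from 8.88 to 8.97 for TAPBP. In 3 probe sets a member shares its entry with another gene: HLA-B with HLA-C, TAP2 with the class II gene HLA-DOB, and PSMB9 with the antisense RNA PSMB8-AS1. The brightest probe set of each gene stands for it below. For HLA-B that is the probe set shared with HLA-C, so HLA-B as a single gene is uncertain.

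**Figure D1:**
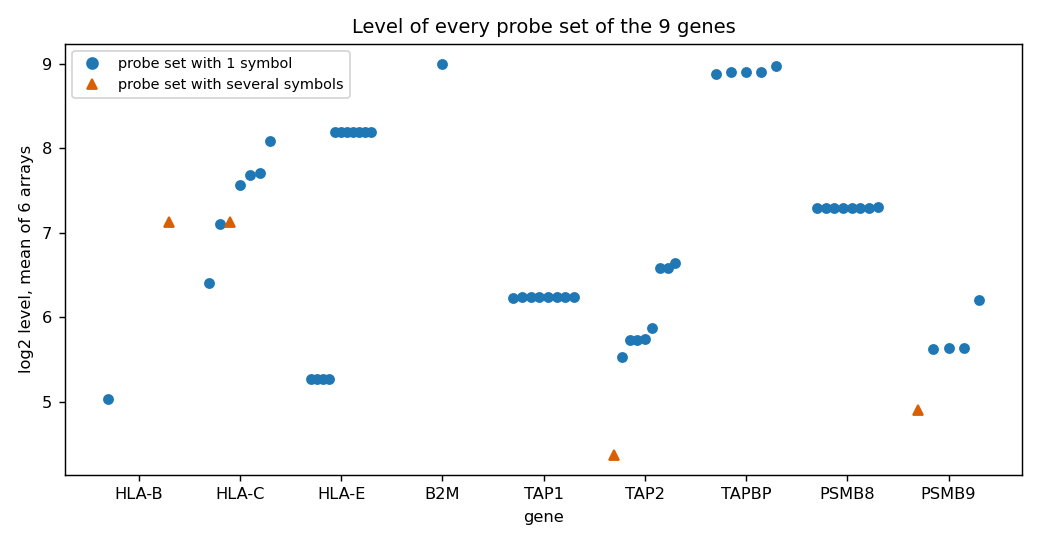
Log2 level of every probe set of the 9 genes (mean of the 6 arrays, vertical axis), by gene; triangles are the 3 probe sets that list several symbols. TAP1 and PSMB8 sit at 1 level each, while HLA-E splits between 5.27 and 8.19 and TAP2 spreads from 4.37 to 6.65.

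The first comparison asked what Comp.2 did to these genes against vehicle. TAP1 and PSMB8 had the largest differences, both upward, 1.31-fold and 1.25-fold, and the 3 heavy chain genes lay between -0.18 and 0.081 on the log2 scale. No member passed the threshold (adjusted p under 0.05 by limma over all 25713 named probe sets), in a comparison where 0.117% of all probe sets were called higher and 0.0506% lower. The smallest difference called anywhere in this comparison was 0.60 on the log2 scale, larger than that of any of the 9 genes.

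TAP1 stood at 5.99 and 6.06 on the vehicle arrays, at 6.40 and 6.42 under Comp.2, and at 6.34 and 6.23 under Comp.4. Both Comp.2 arrays were above both vehicle arrays, and so were both Comp.4 arrays. The mean was 6.03 ± 0.05 in vehicle and 6.41 ± 0.01 under Comp.2 (SD, n = 2), a log2 difference of 0.38 (SE 0.075, 95% interval 0.21 to 0.56, 1.31-fold). Its unadjusted p was 0.00156 and its adjusted p 0.173; the latter ran from 0.0371 to 0.573 over the alternative settings. All 8 TAP1 probe sets gave 0.36 to 0.38, as their nearly identical values require.

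PSMB8 stood at 7.13 and 7.15 in vehicle, 7.54 and 7.38 under Comp.2, and 7.29 and 7.35 under Comp.4. The vehicle arrays were the lowest 2 of the 6. Under Comp.2 the log2 difference from vehicle was 0.32 (SE 0.082, 95% interval 0.12 to 0.51), with an adjusted p of 0.265. Comp.4 gave 0.18 (95% interval -0.02 to 0.37, adjusted p = 0.33).

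PSMB9, the other immunoproteasome gene and the divergent neighbour of TAP1, stood at 6.22 and 6.20 in vehicle, 6.22 and 6.06 under Comp.2, and 6.32 and 6.19 under Comp.4. The 3 groups overlapped. Its log2 difference was -0.074 under Comp.2 (95% interval -0.28 to 0.14) and 0.042 under Comp.4 (95% interval -0.17 to 0.25). TAP1 and PSMB9 thus had 0.38 and -0.074 under Comp.2 from starts 488 bases apart, and their intervals did not overlap under Comp.2; the difference between the 2 genes was not tested. The 4 dimmer PSMB9 probe sets ran from -0.081 to 0.081 under Comp.2.

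TAP2, the partner of TAP1 in the transporter, stood at 6.70 and 6.77 in vehicle, 6.64 and 6.52 under Comp.2, and 6.66 and 6.61 under Comp.4. All 4 treated arrays were below both vehicle arrays. The log2 difference was -0.16 under Comp.2 (95% interval -0.35 to 0.03, adjusted p = 0.499) and -0.10 under Comp.4 (95% interval -0.29 to 0.09, adjusted p = 0.568). Under Comp.2, 8 of the 9 TAP2 probe sets were below 0, from -0.22 up, and the probe set shared with HLA-DOB had 0.14. Under Comp.4 they divided, 4 above 0 and 5 below.

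**Figure D2:**
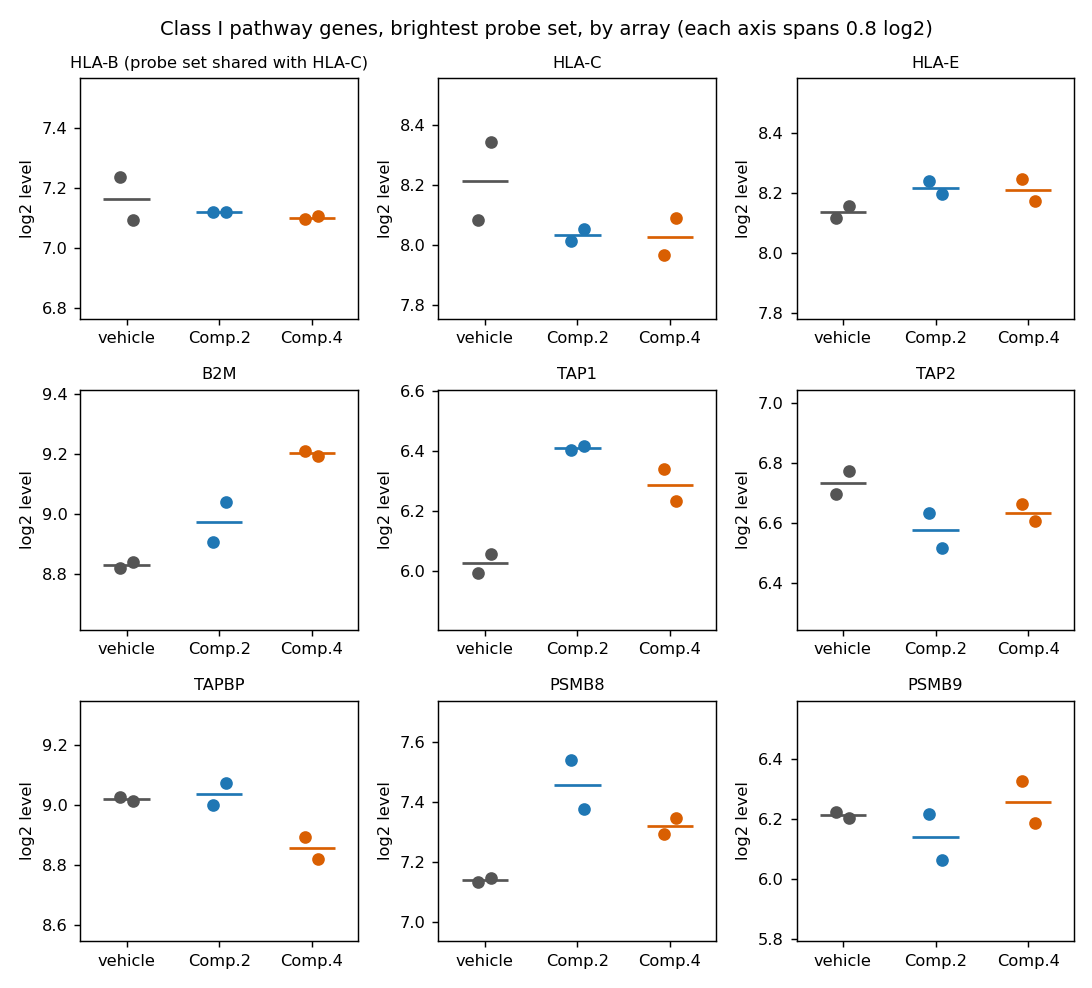
Log2 level (vertical axis) of the brightest probe set of each gene on the 6 arrays, by group; points are arrays and bars are means of 2. TAP1 and B2M were higher on all 4 treated arrays than on both vehicle arrays, while the 3 groups of PSMB9 overlapped.

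For the heavy chain genes all intervals of the brightest probe sets against vehicle included 0. HLA-C, on its brightest probe set, stood at 8.08 and 8.34 in vehicle, 8.01 and 8.05 under Comp.2, and 7.97 and 8.09 under Comp.4. The vehicle arrays differed by more than the treated ones did, and the group difference was -0.18 under Comp.2 (95% interval -0.43 to 0.07) and -0.19 under Comp.4 (95% interval -0.43 to 0.06). On this probe set the values rest on which vehicle array is used: without the first they were -0.31 and -0.32, and without the second -0.050 and -0.055. Of the 7 HLA-C probe sets 6 were below 0 under each compound, against the same vehicle arrays. The next brightest stood at 7.77 and 7.78 in vehicle, and its treated arrays at 7.66 to 7.69. Its difference was -0.11 under Comp.2 (95% interval -0.27 to 0.05) and -0.090 under Comp.4 (95% interval -0.25 to 0.07). The HLA-C probe set above 0 had 0.012 and 0.025. The probe set listing both HLA-B and HLA-C stood at 7.24 and 7.09 in vehicle, 7.12 and 7.12 under Comp.2, and 7.10 and 7.11 under Comp.4. All 4 treated values lay between the vehicle values. HLA-B's own probe set was dim, with a mean of 5.04, and gave -0.11 under Comp.2 and 0.17 under Comp.4 (95% intervals -0.37 to 0.16 and -0.09 to 0.44), so the direction of HLA-B under Comp.4 depends on the probe set.

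HLA-E stood at 8.12 and 8.16 in vehicle, 8.24 and 8.20 under Comp.2, and 8.25 and 8.17 under Comp.4. On this brightest probe set both treated groups lay above vehicle, by 0.081 (95% interval -0.09 to 0.25) and 0.074 (95% interval -0.10 to 0.24). Of the 11 HLA-E probe sets 7 were above 0 under Comp.2 and all 11 under Comp.4. The 4 dim ones, with identical values and a mean level of 5.27, gave -0.015 under Comp.2 and 0.039 under Comp.4. On those 4 the treated arrays overlapped vehicle. TAPBP stood at 9.03 and 9.01 in vehicle, 9.0 and 9.08 under Comp.2, and 8.89 and 8.82 under Comp.4. Comp.2 overlapped vehicle, with a log2 difference of 0.018 (95% interval -0.15 to 0.19), and both Comp.4 arrays were below the other 4.

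Over the 9 genes the median log2 difference under Comp.2 was 0.018, beside 0.0018 over all named probe sets. At an unadjusted p under 0.05, 2 of the 9 were higher (TAP1 and PSMB8) and none lower, where 6.06% of all probe sets were higher and 5.28% lower at that level. Arrays of the 2 groups did not overlap for 4 genes in the upward and 2 in the downward direction, where 22.4% and 21.6% of all probe sets were so. With probe sets above the median level tested alone, TAP1 passed under Comp.2 (adjusted p = 0.0371). So did all 8 of its probe sets, which held 2 distinct sets of values. That setting called 154 of 12856 probe sets higher and 79 lower, beside 30 and 13 of 25713 in the main fit. A design of 2 arrays against 2 cannot give a permutation p below 0.333, so none was run.

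The second comparison asked the same of Comp.4. B2M had the largest difference, 1.29-fold upward, followed by TAP1 at 1.20-fold. Neither passed, in a comparison where 0.140% of all probe sets were called higher and 0.284% lower, and where the smallest difference called was 0.50.

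B2M stood at 8.82 and 8.84 in vehicle, 8.91 and 9.04 under Comp.2, and 9.21 and 9.19 under Comp.4. The 3 groups did not overlap, in the order vehicle, Comp.2, Comp.4. The share of all named probe sets in this order was not counted. Taken singly, 22.4% lay above vehicle without overlap under Comp.2 and 26.9% under Comp.4, and in 23.6% Comp.4 lay above Comp.2. The mean of B2M was 8.83 ± 0.02 in vehicle, 8.97 ± 0.09 under Comp.2 and 9.20 ± 0.01 under Comp.4 (SD, n = 2). Comp.4 differed from vehicle by 0.37 (SE 0.076, 95% interval 0.19 to 0.55, 1.29-fold, unadjusted p = 0.00202). The adjusted p was 0.0974, and it ran from 0.00423 to 0.361 over the alternative settings. B2M passed where the variance was allowed to follow the level (adjusted p = 0.00423) and where only the brighter probe sets were tested (adjusted p = 0.0224). The variance setting called 586 probe sets higher and 939 lower, and the brighter probe sets alone gave 451 and 704. In the main fit these counts were 36 and 73. Comp.2 differed from vehicle by 0.14 (95% interval -0.04 to 0.33, adjusted p = 0.522), a difference that was not distinguishable from the spread between arrays.

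TAP1 gave 0.26 under Comp.4 against vehicle (SE 0.075, 95% interval 0.08 to 0.44, 1.20-fold), with an adjusted p of 0.166. Among the brighter probe sets 1 of its 8 probe sets passed (adjusted p = 0.0436), where 451 of 12856 were called higher and 704 lower. TAPBP had -0.16 (95% interval -0.34 to 0.01, adjusted p = 0.318), and its 5 probe sets ran from -0.16 to -0.11. Over the 9 genes the median was 0.042, beside 0.016 over all named probe sets, and the range was -0.19 to 0.37. At an unadjusted p under 0.05, 2 of the 9 (B2M and TAP1) were higher and none lower, against 8.70% and 8.24% of all probe sets. Arrays did not overlap for 4 genes upward and 2 downward, against 26.9% and 22.7%. Both comparisons use the same vehicle arrays, so a like direction in both is no independent evidence.

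**Figure D3:**
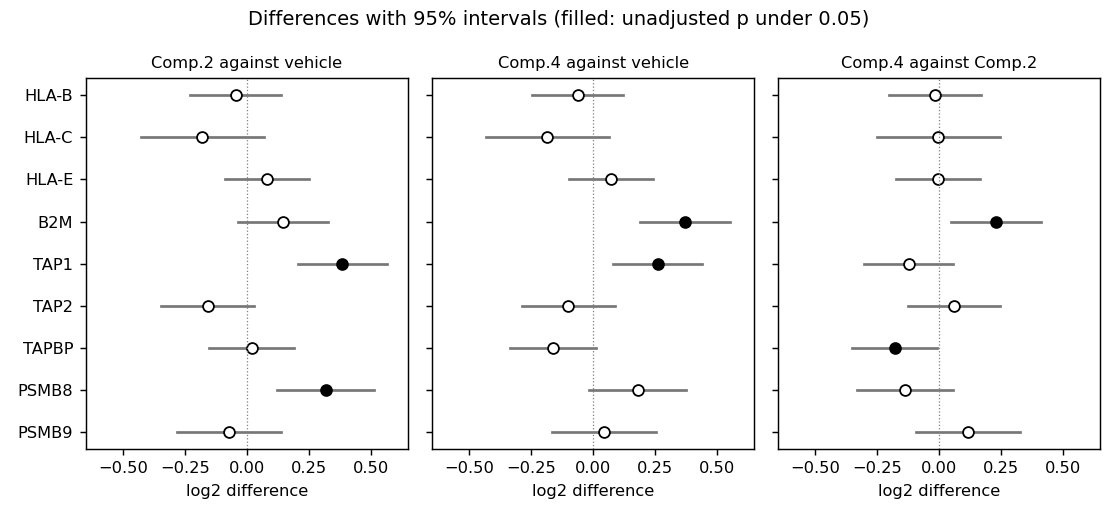
Log2 difference (horizontal axis) of the 9 genes in the 3 comparisons, on the brightest probe set, with 95% intervals from limma; filled points had an unadjusted p under 0.05 and none passed after adjustment. TAP1 (0.38) and PSMB8 (0.32) lay farthest above 0 under Comp.2, and B2M (0.37) under Comp.4.

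The third comparison set Comp.4 against Comp.2 at the same dose and day, as 1 pair of compounds over all named probe sets. No member passed, where 0.334% of all probe sets were called higher under Comp.4 and 0.303% lower. B2M gave 0.23, with Comp.4 above Comp.2 (SE 0.076, 95% interval 0.05 to 0.41, adjusted p = 0.243). It passed where the variance followed the level (adjusted p = 0.0409), a setting that called 590 probe sets higher and 707 lower. TAPBP gave a log2 difference of -0.18, with Comp.4 below Comp.2 (95% interval -0.35 to -0.01, adjusted p = 0.313). These were the 1 higher and 1 lower gene of the 9 at an unadjusted p under 0.05, against 7.61% and 7.56% of all probe sets.

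TAP1 had -0.12 (95% interval -0.30 to 0.05) and PSMB8 -0.14 (95% interval -0.33 to 0.06), so neither difference between the compounds could be told from 0, and a difference as large as 0.30 was not excluded for either. HLA-E had -0.0071 (95% interval -0.18 to 0.16), HLA-C -0.0049 (95% interval -0.25 to 0.24) and the probe set of HLA-B and HLA-C -0.017 (95% interval -0.20 to 0.17). HLA-B's own probe set had 0.28 (95% interval 0.01 to 0.54, adjusted p = 0.314), and with a mean level of 5.04 it lay below the median of named probe sets. TAP2 had 0.059 and PSMB9 0.12. The median over the 9 genes was -0.0071, beside 0.0081 over all named probe sets. Arrays did not overlap for 1 gene upward and 4 downward, against 23.6% and 21.8% of all probe sets.

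Other genes of the pathway came from 5 lists written from textbook knowledge, each gene by its brightest probe set with a single symbol. None of their 57 measured members passed limma's test in any comparison. At an unadjusted p under 0.05, 5 were higher and 2 lower under Comp.2, where 6.06% and 5.28% of all probe sets were. Under Comp.4 these counts were 7 and 2 (8.70% and 8.24% of all), and for Comp.4 against Comp.2 they were 9 and 3 (7.61% and 7.56%). The proteasome list, which holds core subunits, activators and the assembly factor POMP, had 19 measured members. Against vehicle its median was -0.022 under Comp.2 and 0.12 under Comp.4, beside 0.0018 and 0.016 over all named probe sets. At an unadjusted p under 0.05, 5 of the 19 were higher under Comp.4 than in vehicle and none lower, beside 8.70% and 8.24% of all probe sets. Between the compounds 7 were higher under Comp.4 and none lower, beside 7.61% and 7.56%, with a median of 0.11. PSMB10, the third inducible catalytic subunit of the immunoproteasome, stood at 6.63 and 6.66 in vehicle, 6.55 and 6.78 under Comp.2, and 6.91 and 7.12 under Comp.4. Both Comp.4 arrays were above the other 4, by 0.37 over vehicle (SE 0.11, adjusted p = 0.172).

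PSMB1, a structural subunit of the proteasome core, stood at 9.70 and 9.80 in vehicle, 9.54 and 9.57 under Comp.2, and 9.93 and 9.94 under Comp.4. The groups did not overlap, with Comp.2 lowest and Comp.4 highest, and the difference between the compounds was 0.38 (SE 0.072, adjusted p = 0.0935). The share of all named probe sets in that order was not counted. PSMA5, an outer ring subunit, gave 0.31 for Comp.4 against Comp.2 (adjusted p = 0.138). PSME2, a subunit of the interferon-inducible proteasome activator, had 0.22 under Comp.2 against vehicle (adjusted p = 0.373). The constitutive subunits that PSMB8 and PSMB9 replace, PSMB5 and PSMB6, were chosen after their values were seen. PSMB5 had -0.0087 under Comp.2 and 0.12 under Comp.4, and PSMB6 -0.074 and 0.18.

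Of the other class I genes and partners of B2M, 6 of the 7 written were measured. MR1, which presents vitamin B metabolites to T cells, stood at 5.41 and 5.49 in vehicle, 5.88 and 5.76 under Comp.2, and 5.54 and 5.22 under Comp.4. Both Comp.2 arrays were above the other 4, by 0.37 over vehicle (SE 0.12, adjusted p = 0.337), and Comp.4 against Comp.2 gave -0.44 (adjusted p = 0.171). HLA-F had 0.096 and HLA-G -0.14 under Comp.2. Genes of peptide loading, trimming and folding (9 measured) had a median of 0.042 under Comp.2 and 0.00054 under Comp.4. The trimming peptidase gene ERAP2 had 0.26 under each compound but was dim, with a mean level of 4.87. UGGT1, which checks the folding of glycoproteins, had -0.19 under Comp.4 (adjusted p = 0.245).

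The 13 measured regulators of class I transcription had medians of -0.058 and 0.013. Under Comp.2 the largest difference of this list was downward, -0.22 for RFXAP (SE 0.10, adjusted p = 0.48). IRF1, a transcription factor gene, had 0.18 (SE 0.074, adjusted p = 0.43) and RFX5, which with RFXAP forms part of the factor that binds the class I X box, 0.20 (SE 0.081, adjusted p = 0.435). Under Comp.4 RELA, the gene of an NF-kappaB subunit, had -0.25 (SE 0.074, adjusted p = 0.171). The 10 measured interferon receptor and signalling genes had medians of 0.038 and 0.07. IFNGR1, a chain of the interferon gamma receptor, stood at 6.89 and 6.94 in vehicle, 7.12 and 7.14 under Comp.2, and 7.13 and 7.28 under Comp.4. All 4 treated arrays were above vehicle, by 0.22 under Comp.2 (adjusted p = 0.389) and 0.29 under Comp.4 (adjusted p = 0.151). JAK2, the gene of a kinase bound to that receptor, stood at 6.75 on both vehicle arrays, at 6.48 and 6.32 under Comp.2, and at 6.58 and 6.60 under Comp.4. Its treated arrays were all below vehicle, with a log2 difference of -0.35 under Comp.2 (SE 0.08, adjusted p = 0.23).

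**Figure D4:**
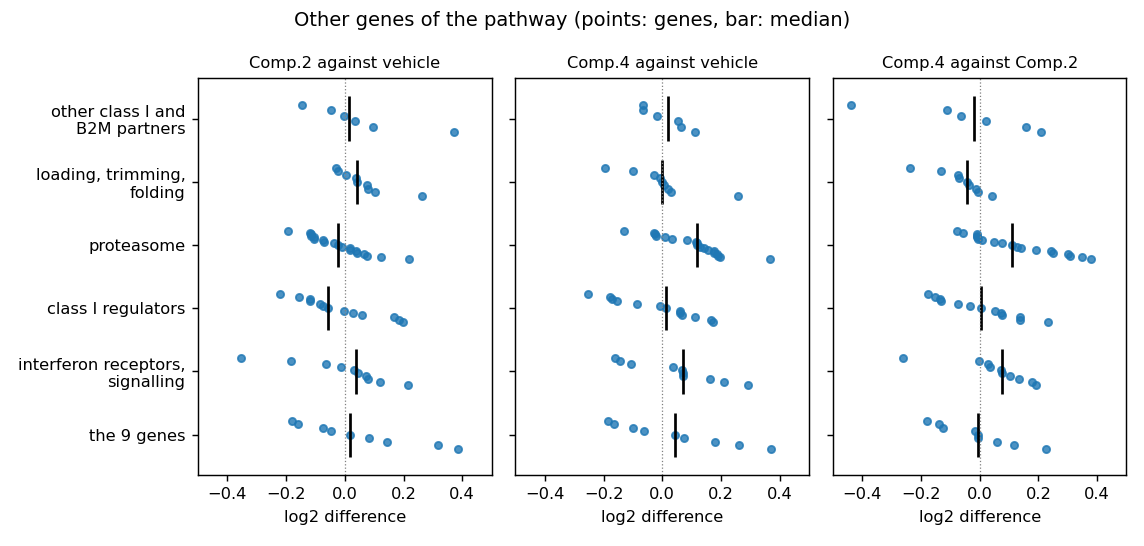
Log2 difference (horizontal axis) of the genes of the 5 other lists and of the 9 genes, in the 3 comparisons; each point is a gene and each bar the median of its list. The proteasome list had a median of 0.12 under Comp.4 against vehicle and -0.022 under Comp.2.

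The mean profile of the 9 genes, each centred on its own mean, had an SD of 0.031 over the 6 arrays and lay at -0.050 and -0.017 in vehicle, 0.033 and 0.0083 under Comp.2, and 0.028 and -0.0026 under Comp.4. It was set beside 9894 protein-coding genes whose mean level was above that of the median gene and which varied at least as much. Those most like it by Pearson's r over the 6 arrays were SBDS (0.992), NCR2 (0.991), TUBB2A (0.988), ENDOD1 (0.982) and CCS (0.981). With 6 arrays and this many candidates such values are a description only, over arrays that share their groups.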

How the data were processed

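Levels were measured on 6 arrays, 2 per group. The authors made the deposited log2 values with RMA, per the submitters' processing notes, which also name Transcriptome Analysis Console 2.0 and Affymetrix Expression Console 1.3.1, in no stated role. RMA subtracts background and equalises arrays. Scanner files and detection calls were not used here, and no array has a sequencing depth; their number limits the precision. The platform table named 23871 probe sets with 1 symbol and 1842 with several; 27904 were unnamed. Entrez numbers updated 90 symbols.

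limma 3.58.1 (R 4.3.3) estimated 1 mean per group from the 6 arrays together (3 residual and 3.63 prior degrees of freedom). P-values are two-sided, adjusted by Benjamini-Hochberg over 25713 named probe sets; the script was tested on simulated data. The members, the lists and the naming rule (all 9 genes; of each list, genes past the threshold and the 3 largest differences) were chosen with earlier results of these data known. Groups come from the sample titles. Same-numbered arrays did not deviate together (r from -0.044 to 0.032). Alternatives changed the probe sets tested, the variance model, the samples and the replicate block.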

Additional observations from a re-analysis of the deposited data

Results flagged for a closer look

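PSMB9 gave 1 case in which the arrays of the compounds lay on opposite sides of vehicle, on 2 of its dimmer probe sets, which hold identical values and so count once. Both Comp.2 arrays lay below and both Comp.4 arrays above the vehicle arrays, with Comp.4 minus Comp.2 at 0.165 on the log2 scale. The Comp.2 side was at -0.049 against vehicle. How many of all named probe sets showed this pattern was not counted, so it is not read as a result about PSMB9. Taken singly, 21.6% of all named probe sets lay below vehicle without overlap under Comp.2, and 26.9% above it under Comp.4. Between the compounds the fitted difference did not pass (adjusted p = 0.339 by limma), and the brightest PSMB9 probe set did not show the pattern. Groups of 2 arrays are too small to look for single arrays that stand apart.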

How the results depend on the processing

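Leaving out any 1 array, where an arm of 1 is assumed to vary like the others, gave no call among the 55 probe sets in any comparison, though those fits called at most 10 of all named probe sets in a direction. Nor did testing all probe sets, single-symbol genes, protein-coding genes, the mean over a gene's single-symbol probe sets, the compared groups alone, or each set of identical values once, the last chosen after seeing the data. With brighter probe sets alone 8 were higher under Comp.2 (all TAP1) and 2 under Comp.4 (B2M and TAP1); with a variance trend 1 was higher under Comp.4 against vehicle and 1 against Comp.2 (both B2M). The replicate block gave 0 calls in each comparison; the arrays share only a number, and over all named probe sets it left 2 higher and 3 lower under Comp.2 against vehicle, 2 and 19 under Comp.4, and 0 and 0 between the compounds. Without the block these were 30 and 13, 36 and 73, and 86 and 78. Over all named probe sets the counts also moved with the setting: brighter probe sets alone (12856 tested) gave 154 and 79, 451 and 704, and 417 and 506, a variance trend gave 235 and 195, 586 and 939, and 590 and 707, and all probe sets together gave 0 and 0, 7 and 92, and 1 and 1.

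No direction that turned belonged to a called value. HLA-B's own probe set, used with single-symbol genes, with protein-coding genes or with the mean over single-symbol probe sets, had 0.17 for Comp.4 against vehicle and 0.28 for Comp.4 against Comp.2, where the shared probe set was slightly below 0. With that mean, Comp.4 against Comp.2 gave 0.016 for HLA-C and 0.018 for HLA-E. Leaving out 1 array, Comp.2 against vehicle ran from -0.12 to 0.027 for HLA-B, from -0.020 to 0.056 for TAPBP and from -0.15 to 0.0031 for PSMB9. Comp.4 against vehicle ran from -0.14 to 0.0091 for HLA-B and from -0.028 to 0.11 for PSMB9. Comp.4 against Comp.2 ran from -0.066 to 0.056 for HLA-C, from -0.043 to 0.029 for HLA-E and from -0.00016 to 0.12 for TAP2. The same fits gave 0.35 to 0.42 for TAP1 under Comp.2 and 0.36 to 0.38 for B2M under Comp.4.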
